A study of Rattus norvegicus with 8 samples.

Results

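Nascent RNA was compared between 4 libraries of cultured rat neurons that had spent their last 4 h in tetrodotoxin (TTX) and 4 libraries that had spent them in vehicle, with the earlier treatment of the cultures kept as a factor. The genes described are those whose 4 TTX values do not overlap the 4 vehicle values in normalized read counts (CPM), and are called separated genes. CPM is a gene's count brought to a common library total, with library sizes scaled by edgeR's TMM factors, which assume that most genes do not differ. Of the 11372 genes tested, 493 (4.34%) met this rule, 306 of them (2.69%) higher and 187 (1.64%) lower under TTX. The direction of a separated gene is fixed by the way it was chosen, so levels and differences of these genes are given as description. All 493 had passed the filter on low counts, and without that filter 324 higher and 223 lower genes were found among 14917.

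All cultures were Sprague Dawley primary neurons taken on postnatal day 1 to 2. The sample titles name hippocampal neurons, but the growth protocol pooled hippocampal with cortical tissue to obtain enough cells. From day 14 in vitro each culture received water (vehicle, H) or 1 µM TTX (T) for 24 h, was washed and kept without drug for 48 h, and received water or TTX again on day 17 for 4 h, and 2 mM bromouridine was present in the final 30 min. Each of the 4 groups carries 1 letter for its earlier and 1 for its later treatment. HH and TH ended in vehicle, HT and TT ended in TTX, and each group holds 2 libraries. No label says whether the replicates came from separate cultures or litters, so every p-value measures only the spread between these libraries.

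TTX blocks voltage-gated sodium channels and so stops neurons from firing action potentials. Bromouridine is built into RNA as it is made, so the captured RNA reports recent transcription more than the standing pool. Cholesterol synthesis is controlled mainly by the SREBP transcription factors, which are held in the endoplasmic reticulum by INSIG proteins when sterol is plentiful and otherwise switch on the mevalonate pathway. LXR receptors respond to oxidized sterols and raise cholesterol efflux genes together with Srebf1. Genes of mitosis are transcribed late in the cell cycle by a shared set of regulators and are nearly silent in neurons, which do not divide. Such cultures also hold glia, among them dividing oligodendrocyte progenitors that can mature into myelin-forming oligodendrocytes.

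The libraries held 3489176 to 4959887 counts over 16871 genes. Neuronal genes were well represented: Rbfox3 ranged from 458 to 683 CPM, Syn1 from 196 to 239, Slc17a7 (excitatory) from 79.9 to 119 and Gad2 (inhibitory) from 218 to 443. Glial markers were present too, Gfap from 337 to 546 CPM and Pdgfra from 145 to 229.6, whereas Csf1r and C1qa (microglia) and Col1a1 (fibroblast) stayed at or under 4.21 CPM and Pecam1 (endothelium) at or under 7.83. HH replicate 1 stood apart from the rest. It held the highest CPM of 2456 tested genes and the lowest of 2532, the most of any library in both, and its firing-dependent genes were high: Fos stood at 37.0 CPM there and at 5.74 to 11.6 in the other 7 libraries. HT replicate 1 came next in such lists, with a mean level of firing-induced (rapid activity-response) genes of 0.22 on the centred log2 scale against 1.18 in HH replicate 1 and -0.34 to -0.070 in the other 6. Where a list's median turned sign or moved by over 1.5 times without HH replicate 1, it is given both ways.

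**Figure D1:**
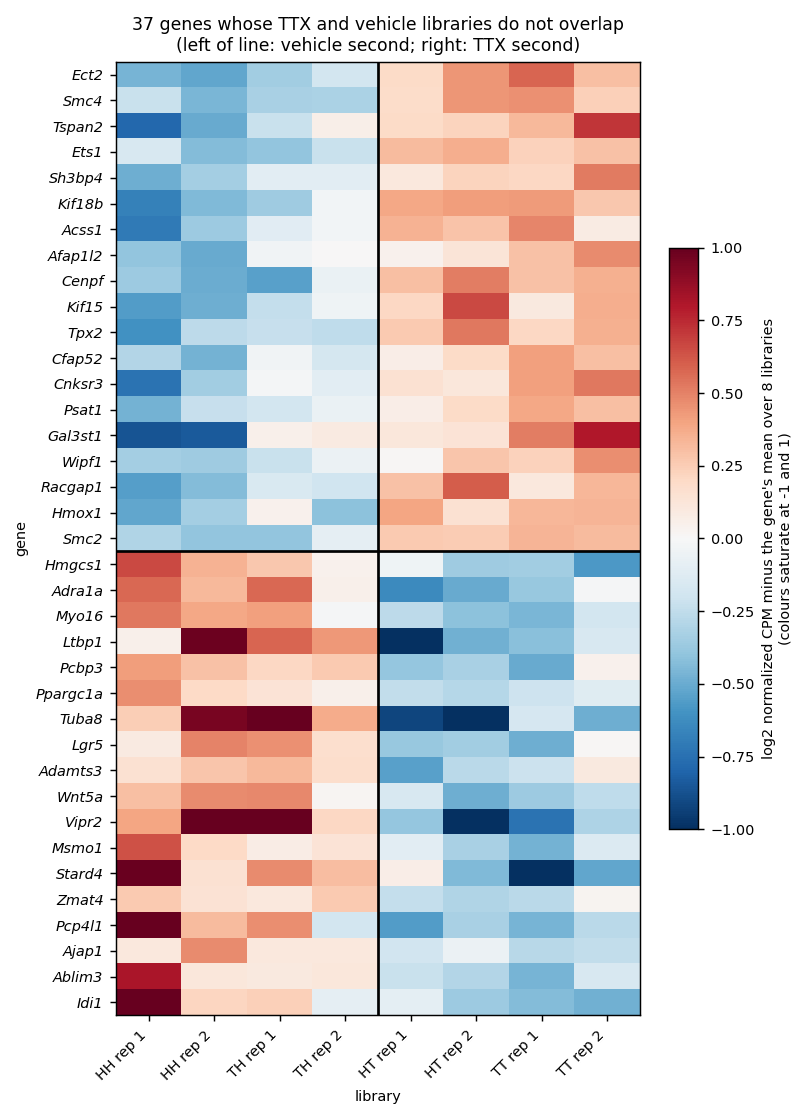
Heat map of 19 higher and 18 lower separated genes of small p (rows) in the 8 libraries (columns); colour gives log2 normalized CPM minus the gene's mean over the libraries, saturating at -1 and 1. Every higher gene is redder in the 4 TTX columns than in any vehicle column and every lower gene bluer, as the rule requires, with HH replicate 1 often at the vehicle extreme.

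No single gene (0%) passed the test of the second treatment averaged over history (edgeR quasi-likelihood test, Benjamini-Hochberg adjustment). The smallest adjusted p was 0.192, and 789 genes had an unadjusted p under 0.05, 495 of them (4.35%) higher and 294 (2.59%) lower. DESeq2 called 13 genes, 11 of them separated, and limma-voom 0 (770 at an unadjusted p under 0.05). Without the filter on low counts edgeR called 16 genes, 15 of them separated, and 9 genes were called by both. These are Ect2, Tspan2, Acss1, Sh3bp4, Hmgcs1, Adra1a, Myo16, Pcbp3 and Abtb2; Abtb2, named after its values were seen, was not separated. Separated genes mostly differed by little: the median log2 fold change was 0.36 for the higher genes, with a range of 0.089 to 1.63, and -0.30 for the lower genes, with a range of -1.47 to -0.058. On average 7 of the 493 differed by over 2-fold, 2 higher and 5 lower (Vipr2, Tuba8, Fezf2, Nppc and Ltbp1). Of all 11372 genes tested 24 did so. Tuba8, Fezf2 and Nppc lay at low counts, with highest values of 9.12, 4.65 and 5.25 CPM. In 27 genes, 21 higher and 6 lower, the nearest TTX and vehicle values were at least 1.2-fold apart. The widest gaps, at genes named after their values were seen, belonged to Mmp2, a secreted protease, at 2.87 to 3.59 under vehicle and 5.18 to 7.24 under TTX, and on the lower side to Vipr2, described further on. Scrg1 was another, at 9.87 and 9.39 in HH, 10.2 and 9.92 in TH, 14.5 and 14.3 in HT, and 14.9 and 17.3 in TT, with vehicle values that lay within a range of 9.39 to 10.2.

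The split by direction moved with the scaling. With total counts in place of TMM factors, 398 higher and 102 lower genes were separated, so that 79.6% were higher against 62.1% in the main analysis, and 273 of the 306 higher but only 86 of the 187 lower genes were kept. DESeq2 size factors gave 287 and 203.

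Genes of mitosis and cytokinesis stood higher under TTX. Of the 46 tested members of this list, 22 (47.8%) were separated as higher and 0 as lower, beside 2.69% and 1.64% of all genes tested. All 46 had a log2 fold change above 0, with a median of 0.60 beside -0.0011 over all genes tested. At an unadjusted p under 0.05, 37 of the 46 were higher, beside 4.35% of all genes. The list's mean log2 level, centred on its mean over the libraries, was -0.41 and -0.35 in HH, -0.26 and -0.040 in TH, 0.099 and 0.43 in HT, and 0.23 and 0.30 in TT, so the 4 TTX libraries all lay above the 4 vehicle libraries. Without HH replicate 1 the median was 0.58 with 23 separated as higher, and without HH replicate 1 and HT replicate 1 it was 0.66 with 32. Fewer libraries make separation easier: in the first case 485 of all 11688 genes tested were separated as higher and 433 as lower (7.85% in all), and in the second 767 and 671 of 11661 (12.3%). The median was 0.71 in HT against HH and 0.46 in TT against TH. Of the 46 genes, 38 (82.6%) were also higher in TH than in HH, beside 50.2% of all genes tested, with a median difference of 0.24. In TT against HT 26 (56.5%) were higher, beside 50.1%, with a median of 0.013. These contrasts share libraries with those of the second treatment.

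The promoters of these genes are printed because the group stood higher together. Each run is the 250 bases before the annotated transcription start in RefSeq (GRCr8), 5′ to 3′ on the gene's strand. Capitals mark CCAAT (the box bound by NF-Y), TTTGAA (the CHR element) and, in Cdk1, TTTNNCGC (an E2F motif), or their reverse complements. The deposited counts were made on rn6, so no coordinates are given. Ect2 and Smc4 have the smallest p of the mitosis genes with such a match; Cdk1 was added after its values were seen.
Ect2: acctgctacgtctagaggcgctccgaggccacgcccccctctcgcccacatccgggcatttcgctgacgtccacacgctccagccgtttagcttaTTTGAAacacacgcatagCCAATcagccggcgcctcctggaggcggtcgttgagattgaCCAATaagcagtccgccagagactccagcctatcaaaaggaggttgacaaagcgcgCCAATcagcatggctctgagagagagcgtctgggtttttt
Smc4: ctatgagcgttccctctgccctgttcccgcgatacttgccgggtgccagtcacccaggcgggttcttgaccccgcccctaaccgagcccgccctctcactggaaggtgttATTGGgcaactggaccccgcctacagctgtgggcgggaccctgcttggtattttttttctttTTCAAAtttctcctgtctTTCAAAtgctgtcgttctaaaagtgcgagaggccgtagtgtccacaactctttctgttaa
Cdk1: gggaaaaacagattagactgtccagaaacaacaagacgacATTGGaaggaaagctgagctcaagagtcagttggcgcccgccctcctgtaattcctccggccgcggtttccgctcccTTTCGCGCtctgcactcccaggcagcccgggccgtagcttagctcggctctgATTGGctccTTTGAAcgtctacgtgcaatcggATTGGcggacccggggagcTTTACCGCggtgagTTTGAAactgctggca
In these windows Ect2 holds 3 CCAAT and 1 TTTGAA, Smc4 holds 1 and 2, and Cdk1 holds 3 and 2 beside 2 matches of TTTNNCGC. Both strands were searched, and a base shared by 2 motifs counts for each. TTTGAA was found in 21 of the 39 mitosis list promoters matched to the reference (53.8%), beside 16.0% of all 27457 rat promoters and 10.2% of the promoters of genes tested. CCAAT was found in 26 of the 39 (66.7%), beside 34.3% and 35.4%. TTTNNCGC was found in 7 of the 39 (17.9%), beside 4.35% and 7.23%. Among the 253 higher separated genes with a promoter in the reference, TTTGAA was found in 15% and CCAAT in 41.1%. A match describes letters only and shows no binding.

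Ect2 encodes an exchange factor that drives the cleavage furrow. Its normalized CPM, replicate 1 first, was 24.7 and 23.7 in HH, 26.8 and 30.0 in TH, 38.8 and 46.3 in HT, and 50.8 and 41.8 in TT. The 4 TTX libraries lay above all vehicle libraries, and within vehicle the TH values were the higher. The log2 fold change averaged over history was 0.76 ± 0.12 (± SE, 2 libraries per group, edgeR adjusted p = 0.192), and a value with ± in parentheses after any later gene is the same quantity. Smc4, a condensin subunit that packs chromosomes, measured 36.1 and 30.8 in HH, 33.7 and 33.8 in TH, 47.9 and 57.3 in HT, and 57.8 and 49.8 in TT, a log2 fold change of 0.66 ± 0.11 (adjusted p = 0.192). Its 4 vehicle values lay close together, and the difference was 0.65 without and 0.67 with earlier TTX. Smc4 neighbours Trim59, another higher separated gene, in the GRCr8 order, and whether strand was used in counting is not given in the sources used here. Smc2, the partner of Smc4 in condensin, ranged over 19.3 to 23.9 under vehicle and 30.3 to 32.1 under TTX, with a log2 fold change of 0.58 ± 0.12.

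Motors and spindle genes followed. Cenpf, a kinetochore protein, measured 20.05 and 18.3 in HH, 17.7 and 24.7 in TH, 31.8 and 36.8 in HT, and 31.6 and 33.1 in TT, with 1 vehicle library, TH replicate 2, nearest to the TTX values. Kif15, a spindle motor, measured 26.5 and 27.9 in HH, 33.1 and 37.8 in TH, 45.02 and 61.8 in HT, and 41.9 and 50.2 in TT; its difference was 0.97 in HT against HH and 0.37 in TT against TH. Tpx2, which activates Aurora A on the spindle, measured 17.9 and 22.7 in HH, 23.2 and 22.9 in TH, 32.6 and 39.3 in HT, and 31.4 and 34.9 in TT. HH replicate 1 was the lowest Tpx2 library, well under the 3 other vehicle values, which lay within 22.7 to 23.2. The log2 fold changes of the 3 genes were 0.72 ± 0.14, 0.67 ± 0.13 and 0.67 ± 0.13. Kif18b, a motor that trims microtubule ends, ranged over 12.6 to 19.8 under vehicle and 24.3 to 27.2 under TTX (0.73 ± 0.14). Racgap1, which works with Ect2 at the spindle midzone, ranged over 12.95 to 17.1 under vehicle and 20.4 to 28.9 under TTX (0.67 ± 0.14).

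Cdk1, the kinase that starts mitosis, measured 12.03 and 11.5 in HH, 13.3 and 15.2 in TH, 19.4 and 27.5 in HT, and 21.7 and 18.9 in TT, a log2 fold change of 0.75 ± 0.16. HT replicate 2 held the highest value, and the lowest TTX value lay above the highest vehicle value. Top2a, which untangles replicated DNA, ranged over 21.6 to 25.1 under vehicle and 28.7 to 44.6 under TTX (0.64 ± 0.15). Kif20b, a motor of cytokinesis, ranged over 15.7 to 20.03 under vehicle and 25.3 to 34.8 under TTX (0.60 ± 0.14), and Nuf2, of the kinetochore, over 8.61 to 10.3 under vehicle and 13.5 to 21.6 under TTX (0.70 ± 0.18). HT replicate 2 was the highest library for Cdk1 and for these 3 genes. Knstrn, a spindle protein on no list and named after its values were seen, measured 7.40 and 8.61 in HH, 5.25 and 7.89 in TH, 11.4 and 17.1 in HT, and 17.2 and 12.9 in TT (0.99 ± 0.21). The list holds 22 separated members in all, so not every gene described above is on it, even with Knstrn set aside. The remaining 11, given to complete the list, are Aspm, Kif2c, Mki67, Bub1b, Ccna2, Kif18a, Kif20a, Ttk, Prc1, Bub1 and Birc5. Their log2 fold changes ran from 0.44 for Bub1 to 0.81 for Birc5.

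DNA replication genes, which act earlier in the cell cycle, gave 1 higher (2.38%) and 0 lower separated genes of 42 tested, close to the share of all genes tested. Their median log2 fold change was 0.27, with 33 above 0. The difference between the replication and mitosis lists was not tested. The separated member is Rrm2, a subunit of the enzyme that makes deoxynucleotides. It measured 8.02 and 4.96 in HH, 9.94 and 9.11 in TH, 13.5 and 16.0 in HT, and 13.2 and 13.9 in TT, with a log2 fold change of 0.86 ± 0.18; HH replicate 2 was lowest, and the 4 TTX values lay within 13.2 to 16.0.

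**Figure D2:**
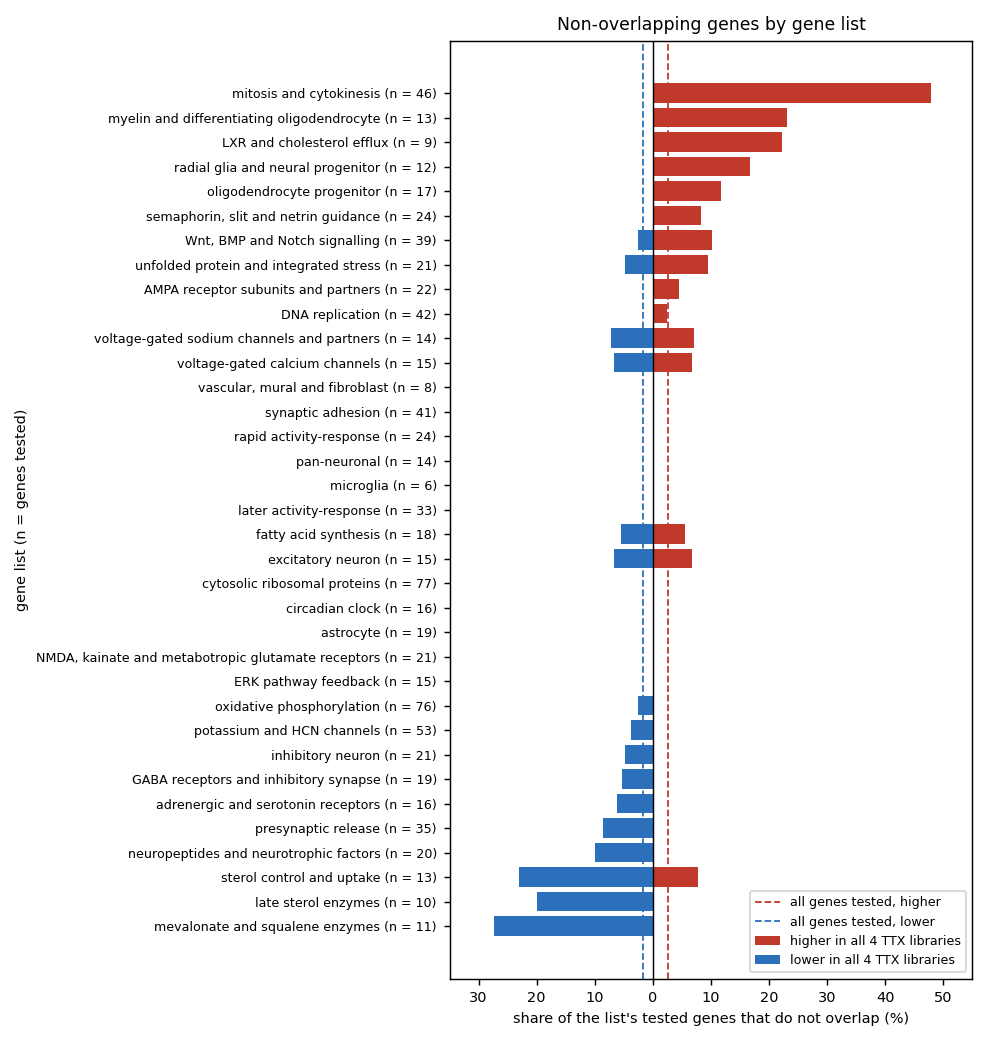
Share of each list's tested genes that were separated as higher (red, to the right) or lower (blue, to the left) under TTX, in percent; dashed lines mark the shares of all genes tested, 2.69% and 1.64%. Mitosis and cytokinesis reach 47.8% higher, and the 3 lists with the largest lower shares are the sterol lists.

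Oligodendrocyte genes stood higher under TTX as well. Of 13 tested genes of myelin and differentiating oligodendrocytes, 3 (23.1%) were separated as higher and 0 as lower, with 12 above 0 and a median log2 fold change of 0.60. Of 17 progenitor genes 2 (11.8%) were separated as higher and 0 as lower, with 17 above 0 and a median of 0.36. Over all genes tested the shares were 2.69% higher and 1.64% lower. With DESeq2 size factors 1 progenitor gene was separated, as higher. The per-library levels of these lists overlapped between treatments. The myelin list stood at -0.69 and -0.47 in HH, -0.17 and 0.084 in TH, 0.049 and -0.046 in HT, and 0.23 and 1.02 in TT, so TT replicate 2 was far above the rest. Without TT replicate 2 the median of the myelin list was 0.31 and that of the progenitor list 0.29, and without HH replicate 1 they were 0.54, with 3 genes separated, and 0.36, with 1, beside 485 of all 11688 genes. Both lists also stood higher with earlier TTX: in each, both TH libraries lay above both HH libraries and both TT above both HT. Over the 30 genes of the lists the median log2 difference was 0.42 for TH against HH and 0.39 for TT against HT, contrasts that share libraries with those of the second treatment. In bulk RNA, a change in the number of cells of a type and a change in RNA per cell cannot be told apart.

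Tspan2, a tetraspanin of maturing oligodendrocytes, measured 29.0 and 35.2 in HH, 42.8 and 52.2 in TH, 57.2 and 58.4 in HT, and 62.5 and 82.1 in TT (0.72 ± 0.12, adjusted p = 0.192). Its levels were ordered HH, TH, HT and TT with no overlap between the 4 groups. Itpr2, a calcium release channel that marks newly differentiating oligodendrocytes, ranged over 219 to 254 under vehicle and 278 to 385 under TTX (0.42 ± 0.10). The myelin gene Mbp did not follow. It measured 85.7 and 133.5 in HH, 132.6 and 128.7 in TH, 85.9 and 107 in HT, and 91.9 and 160.9 in TT. Only TT replicate 2 lay above all vehicle libraries for Mbp.

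Among progenitor genes, the transcription factor gene Sox8 measured 30.8 and 38.1 in HH, 43.6 and 46.3 in TH, 51.2 and 53.9 in HT, and 53.1 and 69.7 in TT (0.53 ± 0.12), TT replicate 2 again being highest. Olig2, the factor that defines the lineage, measured 105 and 97.5 in HH, 125 and 112 in TH, 137 and 125 in HT, and 138 and 148 in TT (0.32 ± 0.09), and its nearest values, TH replicate 1 and HT replicate 2, nearly met. Gal3st1, which sulfates the lipids of myelin and was on no list, measured 6.17 and 6.26 in HH, 11.6 and 11.9 in TH, 12.2 and 12.4 in HT, and 15.9 and 19.5 in TT (0.78 ± 0.16). Its TH values almost reached its HT values, and the HH values were about equal to each other and lowest.

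Markers of other glia and of progenitors were mostly not separated. Of 19 astrocyte genes 0 were separated, 16 lay above 0 and the median was 0.17. Their summed level was 2647 to 2967 CPM under vehicle and 2985 to 3366 under TTX, which do not overlap. Gfap ranged over 337 to 489 under vehicle and 437 to 546 under TTX (0.40 ± 0.12) and Aqp4, a water channel, over 133 to 183 under vehicle and 172 to 221 under TTX (0.29 ± 0.09), and both overlapped. Of 12 radial glia and progenitor genes 2 (16.7%) were separated as higher, beside 2.69% of all genes tested, with a median of 0.22. They are Notch1, the receptor that keeps progenitors undifferentiated, and Vim, an intermediate filament of immature and reactive glia. Notch1 measured 86.7 and 114 in HH, 134 and 108 in TH, 146 and 169.8 in HT, and 146 and 140.0 in TT (0.45 ± 0.11), and HH replicate 1 was lowest. Vim ranged over 39.2 to 48.5 under vehicle and 52.0 to 94.6 under TTX (0.67 ± 0.21), and HT replicate 2 and TT replicate 1 were the high ones. Microglial genes (6 tested, median 0.087) and vascular, mural and fibroblast genes (8 tested, median -0.017) held 0 separated genes, and without HH replicate 1 the medians were 0.022 and -0.15. In these lists C1qa (0.69 ± 0.62), Cd68 (-0.30 ± 0.35), Tagln (0.82 ± 0.33) and Dcn (-0.55 ± 0.36) had the smallest p. The summed radial glia and neural progenitor markers ran from 601 to 662 CPM under vehicle and from 682 to 854 under TTX, which do not overlap. The summed oligodendrocyte progenitor markers ran from 1538 to 2239 CPM under vehicle and from 2080 to 3095 under TTX, the summed myelin markers from 997 to 1252 and from 1216 to 1973. No marker of these lists was at 0 in all libraries, and the part of cell numbers in the higher mitosis and oligodendrocyte genes was not tested.

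**Figure D3:**
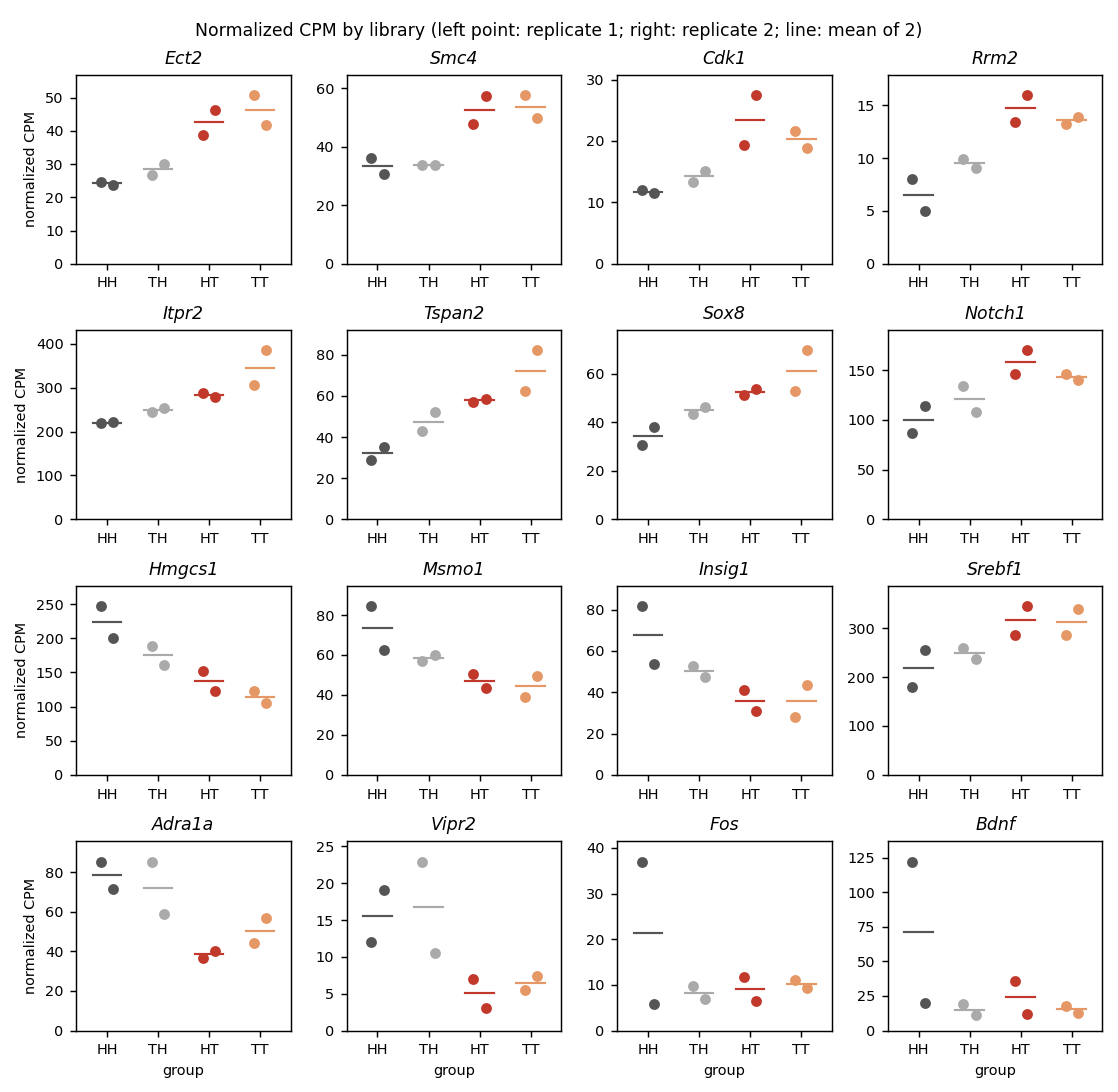
Normalized CPM of 16 genes in every library, by group on the horizontal axis (left point replicate 1, right point replicate 2, line the mean of the 2; vertical axes start at 0). Ect2 to Srebf1, Adra1a and Vipr2 show no overlap between the vehicle groups (HH, TH) and the TTX groups (HT, TT), while Fos and Bdnf overlap and are highest in HH replicate 1.

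Genes of cholesterol synthesis stood lower under TTX. Of 11 mevalonate and squalene enzymes 3 (27.3%) were separated as lower and 0 as higher, 10 lay below 0 and the median log2 fold change was -0.46. Of 10 late sterol enzymes 2 (20%) were separated as lower and 0 as higher, 10 lay below 0 and the median was -0.42. Over all genes tested the shares were 1.64% lower and 2.69% higher. The mevalonate list's level was 0.48 and 0.19 in HH, 0.14 and 0.054 in TH, -0.0033 and -0.32 in HT, and -0.45 and -0.085 in TT. That of the late enzymes was 0.47 and 0.17 in HH, 0.16 and 0.10 in TH, 0.017 and -0.36 in HT, and -0.42 and -0.14 in TT. In both lists every vehicle library lay above every TTX library, HH replicate 1 was highest and TT replicate 1 lowest. Without HH replicate 1 the medians were -0.36 and -0.33, with 3 and 3 genes separated as lower, beside 433 of all 11688 genes, and without HH replicate 1 and HT replicate 1 they were -0.50 and -0.44, with 4 and 4, beside 671 of all 11661. With total counts the medians were -0.41 and -0.37, with 2 and 2, beside 102 of all genes.

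The promoters of the sterol genes are shown on the same terms as above, with capitals for CCAAT or its reverse complement and, in Insig1, for CACNCCAC (the core of a sterol regulatory element), here on the opposite strand. Hmgcs1 and Msmo1 have the smallest p among the sterol genes with a match; Insig1 was added after its values were seen.
Hmgcs1: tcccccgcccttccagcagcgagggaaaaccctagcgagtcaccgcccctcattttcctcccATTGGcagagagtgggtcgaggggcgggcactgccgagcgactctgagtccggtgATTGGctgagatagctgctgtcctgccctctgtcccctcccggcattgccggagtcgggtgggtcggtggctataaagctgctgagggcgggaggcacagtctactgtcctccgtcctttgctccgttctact
Msmo1: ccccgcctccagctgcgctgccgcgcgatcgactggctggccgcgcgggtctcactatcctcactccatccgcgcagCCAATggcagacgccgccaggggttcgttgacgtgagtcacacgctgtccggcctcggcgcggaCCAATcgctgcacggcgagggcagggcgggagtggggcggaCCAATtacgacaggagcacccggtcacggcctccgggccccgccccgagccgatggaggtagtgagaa
Insig1: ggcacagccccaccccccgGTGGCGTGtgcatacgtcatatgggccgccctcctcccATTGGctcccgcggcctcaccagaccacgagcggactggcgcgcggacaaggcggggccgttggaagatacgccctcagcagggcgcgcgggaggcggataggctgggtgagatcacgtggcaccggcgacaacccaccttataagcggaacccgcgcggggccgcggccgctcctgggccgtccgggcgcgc
Hmgcs1 holds 2 CCAAT, Msmo1 holds 3, and Insig1 holds 1 beside 1 CACNCCAC. CCAAT was found in 13 of the 16 sterol enzyme promoters matched (81.2%), beside 34.3% of all promoters. CACNCCAC was found in 2 of the 16 (12.5%), beside 4.84% of all promoters and 5.09% of those of genes tested. Over all 150 lower separated genes with a promoter, CCAAT was found in 28% and CACNCCAC in 6.67%. The CRE motif TGACGTCA was found in 9 of these 150 (6.00%) and in 5 of the 253 higher genes (1.98%), beside 3.03% of the promoters of genes tested.

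Hmgcs1, the enzyme that makes HMG-CoA at the head of the pathway, had the smallest p of the lower genes. It measured 247 and 200.1 in HH, 189 and 161 in TH, 152 and 123 in HT, and 123 and 105 in TT, a log2 fold change of -0.66 ± 0.11 (edgeR adjusted p = 0.192). HH was highest, TH next and the TTX groups lowest, with HT replicate 2 and TT replicate 1 at about the same level. Idi1, which makes the reactive isoprene unit, measured 50.9 and 29.2 in HH, 29.8 and 23.7 in TH, 23.5 and 19.7 in HT, and 18.7 and 18.1 in TT (-0.70 ± 0.18). Only a narrow gap set TH replicate 2 from HT replicate 1, and HH replicate 1 was far above the rest. Sqle, which commits squalene to sterols, ranged over 41.7 to 60.1 under vehicle and 30.6 to 41.6 under TTX (-0.49 ± 0.15), with nearest values that almost met.

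Of the late enzymes, Msmo1 (a sterol C4 demethylase) measured 84.5 and 62.3 in HH, 57.2 and 59.9 in TH, 50.4 and 43.5 in HT, and 39.1 and 49.6 in TT (-0.52 ± 0.12). Cyp51, the lanosterol demethylase, measured 121 and 74.1 in HH, 70.4 and 68.6 in TH, 59.8 and 44.9 in HT, and 40.1 and 61.0 in TT (-0.67 ± 0.19), with HH replicate 1 alone above 100 CPM. In both genes the TT replicate 1 value was the lowest of all 8.

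Of 13 tested genes of sterol control and uptake, 3 (23.1%) were separated as lower and 1 (7.69%) as higher. The shares of all genes tested were 1.64% and 2.69%. The list's median was 0.0040, or -0.061 without HH replicate 1. Insig1, which retains SREBP and is itself an SREBP target, measured 81.7 and 53.5 in HH, 52.8 and 47.6 in TH, 40.9 and 30.9 in HT, and 28.2 and 43.6 in TT (-0.69 ± 0.18). Stard4, a cytosolic sterol carrier, measured 18.2 and 10.2 in HH, 12.7 and 11.3 in TH, 9.57 and 6.74 in HT, and 4.48 and 6.37 in TT (-0.95 ± 0.23), with TT replicate 1 lowest. The higher gene was Srebf1, which encodes SREBP1, an LXR target that mainly drives fatty acid synthesis. It measured 180.4 and 256 in HH, 259.9 and 237 in TH, 286 and 345 in HT, and 285 and 338 in TT (0.43 ± 0.12), HH replicate 1 being lowest.

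Of 9 LXR and cholesterol efflux genes 2 (22.2%) were separated as higher and 0 as lower, beside 2.69% and 1.64% of all genes tested. Of the 9, 8 lay above 0 and the median was 0.19. Abca1, the cholesterol exporter and an LXR target, measured 171 and 195 in HH, 212 and 187 in TH, 223 and 235 in HT, and 275 and 222 in TT (0.32 ± 0.10). Soat1, which esterifies cholesterol for storage, ranged over 16.95 to 19.9 under vehicle and 20.4 to 25.5 under TTX (0.24 ± 0.14). Its gap was narrow, and its unadjusted edgeR p was 0.104. Of 18 fatty acid genes 1 (5.56%) was higher and 1 (5.56%) lower, with a median of -0.10. Acss1, a mitochondrial acetyl-CoA synthetase, measured 60.8 and 76.9 in HH, 91.7 and 97.1 in TH, 126 and 120.4 in HT, and 139 and 105 in TT (0.60 ± 0.11, adjusted p = 0.192), and Fads2, a desaturase, ranged over 237 to 275 under vehicle and 205 to 229.7 under TTX (-0.26 ± 0.09).

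**Figure D4:**
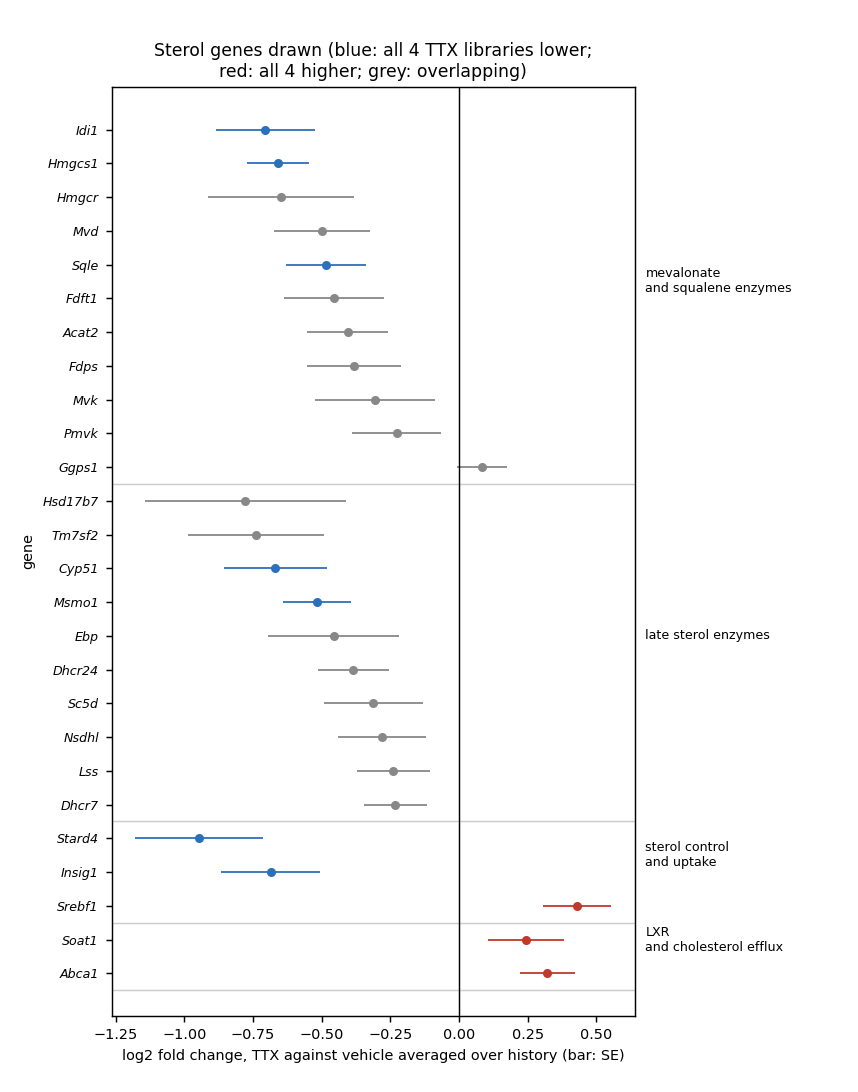
Log2 fold change of TTX against vehicle averaged over history (horizontal axis; bars are the SE) for the tested sterol enzymes and for separated genes of the control, uptake and efflux lists. Of 21 enzymes, all but Ggps1 lie below 0, whereas Srebf1, Abca1 and Soat1 are the separated genes to the right of 0.

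Among genes of neurons, a few receptors and secreted factors were separated as lower, most of them by narrow gaps. Adra1a, the alpha-1A adrenergic receptor, measured 85.1 and 71.7 in HH, 85.4 and 59.1 in TH, 36.7 and 40.4 in HT, and 44.1 and 56.8 in TT (-0.76 ± 0.14, adjusted p = 0.192). TT replicate 2 came close to TH replicate 2, and the difference was -1.02 in HT against HH and -0.50 in TT against TH. Vipr2, a receptor for the neuropeptide VIP, measured 12.03 and 19.0 in HH, 22.9 and 10.5 in TH, 6.99 and 3.09 in HT, and 5.48 and 7.37 in TT (-1.47 ± 0.33); all TTX libraries stood at under 8 CPM. Of 16 adrenergic and serotonin receptor genes, Adra1a was the separated one (6.25%, beside 1.64% of all genes tested as lower). The list's median was -0.16, or -0.10 without HH replicate 1. Of 20 neuropeptide and neurotrophic factor genes 2 (10%) were separated as lower, beside 1.64% of all genes tested. In that list 19 lay below 0 and the median was -0.31, or -0.19 without HH replicate 1. With total counts 0 of the 20 were separated. They are Nppc, a natriuretic peptide, at 2.02 to 5.25 under vehicle and 1.29 to 1.99 under TTX (-1.11 ± 0.39), and Chgb, a granin of dense-core vesicles, at 94.4 to 119 under vehicle and 82.5 to 93.9 under TTX (-0.23 ± 0.10).

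Of 21 inhibitory neuron genes 1 (4.76%) was separated, as lower, beside 1.64% of all genes tested. In the list 17 lay below 0 and the median was -0.21. Gad2, a GABA-synthesizing enzyme, measured 443 and 319.5 in HH, 298 and 305 in TH, 257 and 243 in HT, and 218 and 284 in TT (-0.44 ± 0.12), HH replicate 1 being well above the rest. The summed inhibitory markers were 8838 CPM in HH replicate 1 and 5138 to 5998 in the other 3 vehicle libraries, against 4703 to 6135 under TTX. The list's median was -0.10 without HH replicate 1. Of 15 excitatory neuron genes 1 (6.67%) was higher and 1 (6.67%) lower, beside 2.69% and 1.64% of all genes tested. Their median was -0.012, or -0.063 without HH replicate 1. Fezf2, a factor of deep-layer projection neurons, ranged over 2.61 to 4.65 under vehicle and 1.39 to 1.99 under TTX (-1.14 ± 0.32), and Tbr1, another cortical factor, over 13.9 to 17.7 under vehicle and 18.4 to 22.2 under TTX (0.26 ± 0.14). Of 14 pan-neuronal genes 0 were separated (median -0.11), Uchl1 at -0.21 ± 0.10 and Snap25 at -0.35 ± 0.19 having the smallest p.

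Synaptic lists gave few separated genes, to be read beside 2.69% higher and 1.64% lower of all genes tested. Presynaptic release genes held 3 lower of 35 (8.57%, median -0.16): Stxbp5l, a brake on vesicle fusion (-0.31 ± 0.11), Sv2c, a vesicle protein (-0.26 ± 0.11), and Syn2, a synapsin (-0.19 ± 0.10). Without HH replicate 1 that list's median was -0.048, and with total counts 1 of the 35 was separated. GABA receptor and inhibitory synapse genes held 1 lower of 19 (5.26%, median -0.17, or -0.041 without HH replicate 1), the scaffold gene Gphn (-0.22 ± 0.11). AMPA receptor genes held 1 higher of 22 (4.55%, median -0.086, or -0.023 without that library), the auxiliary subunit Cacng4 (0.22 ± 0.08). NMDA, kainate and metabotropic receptor genes held 0 of 21 (median -0.10, or -0.0086 without it), with Grm2 (-0.60 ± 0.18) and Grik1 (-0.22 ± 0.10) of smallest p. Synaptic adhesion genes held 0 of 41, with a median of -0.058 that turned to 0.036 without HH replicate 1, and with Il1rapl2 (-0.56 ± 0.14) and Nrxn3 (-0.41 ± 0.14) of smallest p.

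Ion channel lists were similar, beside the same 2.69% higher and 1.64% lower of all genes tested. Potassium and HCN channel genes held 2 lower of 53 (3.77%, median -0.11, or -0.072 without HH replicate 1), Kcnip1 (-0.26 ± 0.09) and Kcna6 (-0.20 ± 0.10). Genes of sodium channels and their partners held 1 lower (7.14%) and 1 higher (7.14%) of 14 (median -0.090, or -0.017 without HH replicate 1). The lower gene was Fgf12, an intracellular partner of the channel, at 816 to 1201 under vehicle and 707 to 788 under TTX. The higher was the beta subunit gene Scn2b, at 13.3 to 19.3 under vehicle and 20.2 to 20.5 under TTX. Calcium channel genes held 1 of each of 15 (6.67% each, median -0.099), Cacnb3 (0.34 ± 0.11) and Cacna1d (-0.18 ± 0.09). With total counts 0 genes of the potassium and calcium channel lists were separated, and the sodium channel list held 0 higher and 1 lower.

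Genes switched on by firing were not separated. Rapid activity-response genes held 0 of 24 (median -0.39) and later ones 0 of 33 (median -0.24). Without HH replicate 1 these medians were 0.098, with 1 higher and 1 lower gene separated, and -0.0016, with 2 higher, at a setting where 7.85% of all genes were separated. Egr2 (-0.90 ± 0.36), Dusp1 (-0.43 ± 0.21), Plk2 (-0.25 ± 0.11) and Plk3 (-0.61 ± 0.26) had the smallest p in them. ERK pathway feedback genes held 0 of 15, with a median of -0.040 that turned to 0.22 without HH replicate 1, and with Etv1 (-0.24 ± 0.14) and Dusp5 (-0.80 ± 0.51) of smallest p. Fos, a fast marker of firing, measured 37.0 and 5.74 in HH, 9.67 and 6.88 in TH, 11.6 and 6.46 in HT, and 10.96 and 9.36 in TT (-0.44 ± 0.57), and Bdnf, a neurotrophin, 122 and 20.1 in HH, 19.3 and 10.9 in TH, 36.0 and 12.1 in HT, and 17.7 and 12.9 in TT (-0.75 ± 0.71). In both genes HH replicate 1 was highest by a wide margin and the TTX values overlapped those of the other vehicle libraries. Npas4 (-1.14 ± 1.04), Arc (-0.94 ± 0.64) and Homer1 (-0.26 ± 0.29) were likewise highest in HH replicate 1.

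Signalling and guidance genes pointed both ways. Of 39 Wnt, BMP and Notch genes 4 (10.3%) were separated as higher and 1 (2.56%) as lower, beside 2.69% and 1.64% of all genes tested. Their median was 0.096, or 0.044 without HH replicate 1. Beside Notch1, the higher set holds the Notch ligand gene Dll3 at 2.78 to 7.73 under vehicle and 8.17 to 8.47 under TTX (0.56 ± 0.22), the Notch target gene Hey2 at 2.23 to 5.22 under vehicle and 5.33 to 6.23 under TTX (0.66 ± 0.28), and Wnt7b (0.16 ± 0.12). Wnt5a, a ligand of the non-canonical Wnt pathway, measured 28.1 and 31.6 in HH, 31.8 and 23.1 in TH, 20.4 and 16.3 in HT, and 17.7 and 19.1 in TT (-0.63 ± 0.15) and was lower in every TTX library. Lgr5, an R-spondin receptor, measured 114 and 152 in HH, 147 and 121 in TH, 82.5 and 84.5 in HT, and 76.7 and 108 in TT (-0.60 ± 0.13). Guidance genes held 2 higher of 24 (8.33%), with a median of -0.091 that turned to 0.090 without HH replicate 1. They are Ntn1 (0.40 ± 0.10) and Nrp2 (0.17 ± 0.09).

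Several of the most separated genes belong to none of these groups. Ets1, a transcription factor gene, measured 42.3 and 35.0 in HH, 35.9 and 40.3 in TH, 58.7 and 60.6 in HT, and 55.3 and 57.6 in TT (0.60 ± 0.10, adjusted p = 0.192), with a tight set of values under each treatment. Sh3bp4, a regulator of endocytosis, ranged over 139 to 182 under vehicle and 210.3 to 281 under TTX (0.53 ± 0.10), and Hmox1, the stress-induced heme oxygenase, over 23.4 to 34.5 under vehicle and 37.3 to 44.2 under TTX (0.61 ± 0.13). Afap1l2 (0.47 ± 0.09), Cfap52 (0.49 ± 0.10), Cnksr3 (0.60 ± 0.12) and Wipf1 (0.50 ± 0.10) were also among the higher genes of smallest p. On the lower side Myo16, an unconventional myosin of neurons, measured 963 and 872 in HH, 886 and 665 in TH, 559 and 502 in HT, and 488 and 588 in TT (-0.66 ± 0.12, adjusted p = 0.192). Ppargc1a, a coactivator of mitochondrial genes, measured 154 and 128 in HH, 122 and 115 in TH, 93.7 and 91.5 in HT, and 96.7 and 103 in TT (-0.43 ± 0.09), with the TTX values lying within 91.5 to 103. Ltbp1, a binding protein of latent TGF-beta, measured 23.1 and 44.1 in HH, 33.4 and 30.2 in TH, 11.1 and 16.0 in HT, and 16.7 and 19.9 in TT (-1.06 ± 0.21), and HH replicate 1 was its lowest vehicle library.

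Tuba8 ranged over 4.63 to 9.12 under vehicle and 1.68 to 3.49 under TTX (-1.42 ± 0.31); it belongs to the alpha-tubulins, near copies whose reads may be shared. Pcbp3 (-0.58 ± 0.12), Adamts3 (-0.46 ± 0.10), Zmat4 (-0.39 ± 0.10), Pcp4l1 (-0.83 ± 0.21), Ajap1 (-0.40 ± 0.10) and Ablim3 (-0.58 ± 0.14) were also among the lower genes of smallest p. For Pcp4l1 and Ablim3 HH replicate 1 was the highest library, and for Ajap1 HH replicate 2.

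Stress, clock and housekeeping lists held few separated genes, to be read beside the same 2.69% and 1.64% of all genes tested. Unfolded protein and integrated stress genes held 2 higher (9.52%) and 1 lower (4.76%) of 21 (median -0.092, or -0.16 without HH replicate 1). They are Psat1, of serine synthesis (0.47 ± 0.09), Trib3, a pseudokinase of the stress response (0.54 ± 0.18), and Sdf2l1 (-0.91 ± 0.40). Circadian clock genes held 0 of 16 (median 0.021, or 0.098 without HH replicate 1), with Nr1d2 (0.21 ± 0.10) and Per1 (-0.71 ± 0.32) of smallest p. Ribosomal protein genes held 0 of 77 (median -0.074), with Rpl27a (-0.31 ± 0.10) and Rpl5 (-0.25 ± 0.11) of smallest p. Oxidative phosphorylation genes held 2 lower of 76 (2.63%, median -0.11), Atp5g1 (-0.47 ± 0.13) and Ndufa7 (-0.16 ± 0.10).

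The second treatment was then compared within each history. HT and HH share no library with TT and TH, so the differences are separate measurements. No gene (0%) passed in either (edgeR), and 738 and 300 genes had an unadjusted p under 0.05. Signs were compared by differences in mean log2 CPM. Over all genes tested, 6522 of 11372 (57.4%) had the same sign in both. The Pearson correlation was 0.253 and the Spearman correlation 0.231 across genes, which are not independent replicates. Of the 738 genes at an unadjusted p under 0.05 in HT against HH, 592 (80.2%) had the same sign in TT against TH. Among these, 352 of 427 higher genes (82.4%) were above 0 there, beside 51.0% of all genes, and 240 of 311 lower genes (77.2%) were below 0, beside 49.0%. Single libraries moved this. Without HH replicate 2, 895 of 1535 genes (58.3%) had the same sign and the Pearson correlation was 0.0907. That correlation was 0.131 without TH replicate 1, 0.139 without HT replicate 1 and 0.164 without TT replicate 2, and it lay between 0.21 and 0.27 without each of the other 4.

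At an unadjusted p under 0.05 in both histories there were 92 genes, 88 with 1 sign, 66 higher and 22 lower. There were 48 (36 higher, 5 lower) without TH replicate 1, 54 (35 and 18) without HT replicate 2, 58 (28 and 29) without TT replicate 2 and 138 (89 and 47) without TH replicate 2. Without TT replicate 1 the lower genes numbered 9, and without HH replicate 2 they numbered 33. The 92 include Ect2, Smc4, Cdk1, Top2a, Tspan2 and Sox8 on the higher side and Hmgcs1, Msmo1, Adra1a, Myo16 and Wnt5a on the lower side. The test of whether the difference depended on history called 0 genes (edgeR adjusted), with 186 (1.64%) at an unadjusted p under 0.05. Of the 493 separated genes 8 (1.62%) were among those. The rule already requires 1 sign in both histories, so that share cannot show whether separated genes depend on history. Absolute differences were larger in HT against HH for 352 of the 493, and for 6678 of all 11372 genes tested. Median differences of the higher genes were 0.40 and 0.30, and of the lower genes -0.34 and -0.23. HH replicate 1 was the lowest library for 129 of the 306 higher genes and the highest for 78 of the 187 lower genes. Refitted without it, the same genes had medians of 0.357 and -0.285 averaged over history. Of the 306 higher genes 227 (74.2%) stood higher in TH than in HH, and of the 187 lower genes 58 (31%), beside 50.2% of all genes tested. For TT against HT the counts were 167 (54.6%) and 124 (66.3%), beside 50.1%. These contrasts of history share libraries with those of the second treatment.

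**Figure D5:**
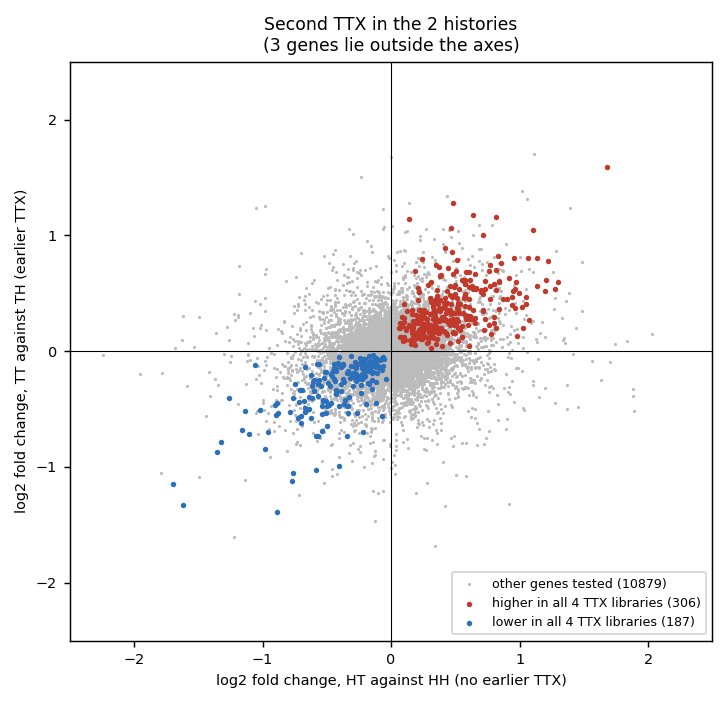
Log2 fold change of the second TTX in cultures without earlier TTX (HT against HH, horizontal axis) and with it (TT against TH, vertical axis) for the genes tested. Red points are the 306 higher and blue points the 187 lower separated genes, which the rule places in the upper right and lower left, and grey points are the other genes. Of the 11372 genes tested, 6558 have 1 sign in both by these fold changes, and 6522 (57.4%) by differences in log2 CPM.

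At the edge of the rule the values nearly touched. Just inside stood Cacng4, at 148 to 165 under vehicle and 165 to 193 under TTX, Ago1, at 112 to 122 under vehicle and 122 to 133 under TTX, and, as lower genes, Zcchc17, at 87.0 to 102 under vehicle and 77.1 to 87.0 under TTX, and Becn1, at 55.8 to 61.3 under vehicle and 52.8 to 55.8 under TTX. Just outside stood Pla2g15, at 21.5 to 25.6 under vehicle and 25.5 to 28.7 under TTX, Fam168b, at 172 to 188 under vehicle and 187 to 196 under TTX, Rbm3, at 43.8 to 46.7 under vehicle and 37.0 to 43.8 under TTX, and Epb41l3, at 228 to 263 under vehicle and 161 to 228 under TTX. The median gap between the nearest values was 0.064 on the log2 scale for the higher genes and 0.047 for the lower genes.

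In the GRCr8 gene order, 24 of 11146 neighbouring pairs of tested genes were both separated, 10 both higher, 5 both lower and 9 in opposite directions. With 4.34% of all genes tested separated, some such pairs arise without any link between neighbours. Whether 24 is more than that was not tested. Mki67 with Mgmt (0.39 ± 0.10), a DNA repair gene named after its values were seen, is 1 of the pairs that were both higher. Of the 493 genes, 18 carry placeholder symbols and are not named.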

How the data were processed

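The deposited table holds raw counts of bromouridine-labelled RNA per gene, which the authors made, per the submitters' processing notes, with FastQC, TopHat2, Bowtie2 and featureCounts on rn6. For versions, annotation, strand setting and the counting of introns, nothing was given in the sources used here. Of its columns 8 match the labels by name and 2 match no sample and were not used. The libraries fell into 4 groups of 2, and 4 libraries formed each treatment arm. Of 16871 genes, 1954 had no count and 11372 (67.4%) passed edgeR's filter on low counts (filterByExpr). Counts were scaled with TMM (factor 0.901 in HH replicate 1, 0.995 to 1.04 in the others) and fitted with edgeR 4.0.16 (R 4.3.3; robust quasi-likelihood, 4 group means), testing TTX against vehicle averaged over history, within each history, and their difference. P-values were adjusted by Benjamini-Hochberg over all genes tested, with a threshold of 0.05. Log2 fold changes came from the edgeR fit at its default prior count. A prior count of 2 was used for log2 CPM, in the list levels and in the comparison of signs between histories. The SE is the log2 fold change divided by the square root of its F statistic. Replicates within a group differed by more than counting noise (chi-square per degree of freedom 4.00 to 11.1). Each library was treated as a replicate, although this spread does not show that the libraries came from separate cultures. Separation was read from normalized CPM.

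Named genes are the 20 higher and 20 lower separated genes of smallest p without placeholder symbols, up to 4 further separated genes per list, the 2 genes of smallest p of a list with none, the 2 just inside and outside the rule in each direction, and 5 activity genes; a few of them are not reported here. The members and the 35 gene lists were chosen with earlier results of these data known. Alternatives were DESeq2 1.42.0, limma-voom (limma 3.58.1), DESeq2 size factors, total counts, no filter, an additive model, a replicate block, another prior count of 0.5, values at least 1.2-fold apart and leaving out each library; leaving out HH replicate 1 with HT replicate 1 was added after seeing the data. The fits were tested on simulated data. RefSeq promoters (GRCr8) were matched by symbol for 9186 of 11372 genes (80.8%) and 403 of the 493 separated genes (81.7%). Motifs were searched with Python 3.11.15.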

Additional observations from a re-analysis of the deposited data

Results flagged for a closer look

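In each arm of 4 libraries, the normalized CPM of the named genes was checked for a highest or lowest library far from the other 3. Of 232 arms (116 genes), 21 held such a library. Chance marks about 1 in 20 arms, and genes of 1 library are not independent.

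HH replicate 1 was the library in 14 arms, all among the vehicle libraries. It was highest for the firing-dependent genes Fos (37.0 CPM), Npas4 (53.0), Arc (41.6), Bdnf (122), Homer1 (787), Egr2 (19.4) and Per1 (87.9). It was also highest for Ablim3 (123), Cyp51 (121), Gad2 (443), Snap25 (761), Sv2c (288) and Epb41l3 (263), and lowest for Tpx2 (17.9).

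HH replicate 2 was highest of the vehicle libraries for Ajap1 (129 CPM) and Tagln (32.9). Among the TTX libraries HT replicate 2 was highest for Kif20b (34.8 CPM) and Nuf2 (21.6), HT replicate 1 for Homer1 (407), TT replicate 2 for Sox8 (69.7) and TT replicate 1 for Becn1 (55.8).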

How the results depend on the processing

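Each group holds 2 libraries, and HH replicate 1 stands apart. No gene passed the averaged test with DESeq2 size factors, total counts, limma-voom, the additive model or HH replicate 1 and HT replicate 1 left out, whereas 16 did without the low-count filter and 13 with DESeq2; leaving out 1 library gave 0 to 8. The deviations of same-numbered libraries correlated at 0.447 for HH with HT and at -0.0658 to 0.0867 for the other pairs of groups. Whether the numbers mark libraries handled together was not tested, and low correlations cannot exclude it. With the replicate block in edgeR 0 genes passed, with a smallest adjusted p of 0.0903. Separated genes numbered 413 to 702 higher and 283 to 564 lower without 1 library, 767 and 671 without HH replicate 1 and HT replicate 1, and 21 and 6 at 1.2-fold apart; 102 were lower with total counts. The share of genes with 1 sign in both histories ran from 52.32% (without HH replicate 2) to 61.05% (without HH replicate 1). Leaving out 1 library moved the log2 fold change of Fos over -0.86 to 0.49, Npas4 over -1.92 to 0.27, Bdnf over -1.25 to 0.15 and Homer1 over -0.54 to 0.17, each positive without HH replicate 1, and of C1qa, at few counts, over -0.36 (without HT replicate 2) to 1.12. Without HH replicate 1 and HT replicate 1 Fos stood at 0.24 and Homer1 at 0.079. With total counts the medians of the excitatory, ERK feedback and vascular lists were above 0. Without HH replicate 1 the medians of the rapid, ERK feedback, guidance, synaptic adhesion and sterol control lists turned sign. Leaving out another library turned those of the microglial (-0.12 without HT replicate 2), ribosomal (0.022 without TH replicate 1), clock (lowest -0.067), excitatory (highest 0.087) and vascular lists (highest 0.23). The cause was not tested. Of the other values of single genes under alternatives, 1804 kept their direction and side of the threshold and 31 passed it.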
